A study of Mus musculus with 12 samples.

Results

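Tph1, Ddc and Hdc are 3 of the 55487 genes listed in an RNA sequencing study of G1E-ER4 cells, and they were selected by gene symbol because their transcripts stood high mainly where 2 treatments were combined. The values that chose them are the levels in the study's 4 groups, so those levels are described here without a test. The line consists of mouse erythroid progenitors whose own Gata1 gene is lost and replaced by a GATA1 fusion that estradiol switches on. All cultures grew with erythropoietin and with medium conditioned by CHO cells that secrete Kit ligand, received siRNA in 2 transfections 24 h apart, were given 100 nM β-estradiol at the second one, and were harvested after 24 h. The siControl group received a control siRNA, and the siZIP10 group one that targets Slc39a10, the gene for the zinc importer ZIP10. The siControl plus DTPA and siZIP10 plus DTPA groups also received 25 µM DTPA, a metal chelator that enters cells poorly, when differentiation began. Each group had 3 biological replicates, of which siControl plus DTPA replicate 3 was left out because its values repeat those of siZIP10 replicate 1, so that 11 libraries were used. Cultures of 1 line were compared, no group had zinc added back or ZIP10 restored, and effects of DTPA on other metals or of the siRNA on other transcripts cannot be told apart from those of zinc or ZIP10.

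Serotonin is made from tryptophan in 2 steps, and histamine from histidine in a single one. Tph1 encodes tryptophan hydroxylase, the rate-limiting enzyme of serotonin synthesis outside the nervous system, which uses tetrahydrobiopterin as cofactor. Ddc encodes aromatic L-amino acid decarboxylase, which turns the hydroxylated product into serotonin, and Hdc encodes histidine decarboxylase, which forms histamine. Both decarboxylases carry pyridoxal phosphate, the active form of vitamin B6. Among blood cells, mast cells and basophils are best known for making these amines and for storing them in granules with the proteoglycan serglycin. No amine or enzyme was measured here.

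Each of the 3 genes lies on the minus strand of the mm10 genome. Tph1 (ENSMUSG00000040046.14) spans chromosome 7, 46644641 to 46672537, Ddc (ENSMUSG00000020182.16) chromosome 11, 11814101 to 11898144, and Hdc (ENSMUSG00000027360.5) chromosome 2, 126593667 to 126619299. RefSeq (GRCm38.p6) gives 2 start sites for Tph1, 2 for Ddc and 1 for Hdc, and gene-level values do not tell them apart. The 250 bases before a start site were searched on both strands for the GATA words (AGATAA or, ending otherwise, AGATAG, and with a first T in place of A, TGATAA or likewise TGATAG) and for the metal response element words (TGCACNC or else TGCGCNC), since GATA factors direct this lineage and the metal response element is bound by the zinc sensor MTF1. The 3 windows that hold such a word, and the inner Ddc window, which holds none, are shown 5′ to 3′ on the gene's strand, with matches in capitals.
Tph1, outer start, chr7:46672538-46672787: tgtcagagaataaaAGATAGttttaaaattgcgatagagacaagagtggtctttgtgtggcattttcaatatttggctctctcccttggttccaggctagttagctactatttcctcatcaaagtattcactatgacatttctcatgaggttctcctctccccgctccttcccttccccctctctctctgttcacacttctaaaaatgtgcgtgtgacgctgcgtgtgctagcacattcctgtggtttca
Tph1, inner start, chr7:46667378-46667627: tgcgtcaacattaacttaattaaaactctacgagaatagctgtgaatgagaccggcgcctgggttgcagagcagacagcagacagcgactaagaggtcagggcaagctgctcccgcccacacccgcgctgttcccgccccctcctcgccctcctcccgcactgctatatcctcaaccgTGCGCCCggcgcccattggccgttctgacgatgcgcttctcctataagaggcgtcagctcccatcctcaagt
Hdc, chr2:126618679-126618928: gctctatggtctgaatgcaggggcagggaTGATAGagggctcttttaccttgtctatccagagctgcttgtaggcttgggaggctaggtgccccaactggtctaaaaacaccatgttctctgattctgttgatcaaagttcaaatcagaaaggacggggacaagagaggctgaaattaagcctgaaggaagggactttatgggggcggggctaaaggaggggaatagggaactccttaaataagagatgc
Ddc, inner start, chr11:11890409-11890658: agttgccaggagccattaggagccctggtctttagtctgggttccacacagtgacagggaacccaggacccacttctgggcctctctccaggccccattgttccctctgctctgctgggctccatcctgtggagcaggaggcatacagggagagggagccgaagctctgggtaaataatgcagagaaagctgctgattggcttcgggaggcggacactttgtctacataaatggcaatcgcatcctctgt
The outer Tph1 window held 1 GATA word, 236 to 231 bases before the start, and the Hdc window 1, 221 to 216 bases before it. The inner Tph1 window held 1 metal response element word, 72 to 66 bases before the start, and neither Ddc window held a word of either kind. These are common words: 26.5% of 32851 such mouse windows hold a GATA word and 21.4% a metal response element word, so that a match is a description of the letters and not a site. Of other words searched, the core of the CREB site, TGACG, occurred 1 time in the outer and 3 times in the inner Tph1 window (17.8% of all windows hold it). The GC box GGGCGG occurred 2 times in the inner Tph1 window and 1 time in that of Hdc (32.7%), and the PU.1 core GAGGAA 1 time in the outer Tph1 window (23.3%). The E-box words of the MITF type, CATGTG and CACGTG, were also searched and occurred in no window of the 3 genes (17.6%).

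Tph1 was low in 3 groups and high in 1. It stood at 2.19, 1.68 and 1.52 TPM (a level corrected for gene length and scaled to the same total in each library) in siControl replicates 1 to 3, which are 103, 72 and 58 reads. With DTPA alone the pair of libraries held 1.52 and 1.72 TPM (69 and 81 reads), and with siZIP10 alone the values were 2.63, 2.26 and 2.57 TPM (104, 95 and 112 reads). With both treatments Tph1 reached 19.1, 18.2 and 17.4 TPM (873, 936 and 745 reads). The DTPA libraries lay within the range of the controls, the siZIP10 libraries lay just above the highest control, and the lowest doubly treated library was 6.61 times the highest library of any other group. The mean was 1.80 ± 0.354 TPM in siControl (SD, n = 3) and 18.3 ± 0.846 with both treatments (n = 3), a 10.2-fold difference.

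Ddc had the lowest level of the 3 in control cells, and every treated library lay above all controls. It stood at 0.766, 0.805 and 1.19 TPM in siControl (26, 25 and 33 reads) and at 1.86 and 1.47 TPM with DTPA alone (61 and 50 reads). With siZIP10 alone it was at 1.54, 2.21 and 1.43 TPM (44, 67 and 45 reads). The ranges of the single treatments overlapped each other. With both treatments Ddc reached 12.1, 11.8 and 12.6 TPM (400, 438 and 389 reads). Its mean went from 0.922 ± 0.236 TPM (SD, n = 3) to 12.2 ± 0.390 (n = 3), a 13.2-fold difference.

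Hdc showed the largest difference of the 3. It stood at 1.21, 0.832 and 1.26 TPM in siControl (59, 37 and 50 reads). With DTPA alone it was at 2.00 and 2.49 TPM (94 and 121 reads), and with siZIP10 alone at 2.08, 1.70 and 1.69 TPM (85, 74 and 76 reads). Again both single treatments lay above all controls and overlapped each other. With both treatments Hdc reached 20.7, 21.5 and 22.5 TPM (981, 1144 and 996 reads). The mean went from 1.10 ± 0.235 TPM (SD, n = 3) to 21.6 ± 0.876 (n = 3), a 19.6-fold difference. In RNA from whole cultures, a rise in every cell and a rise in a few cells cannot be told apart.

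**Figure D1:**
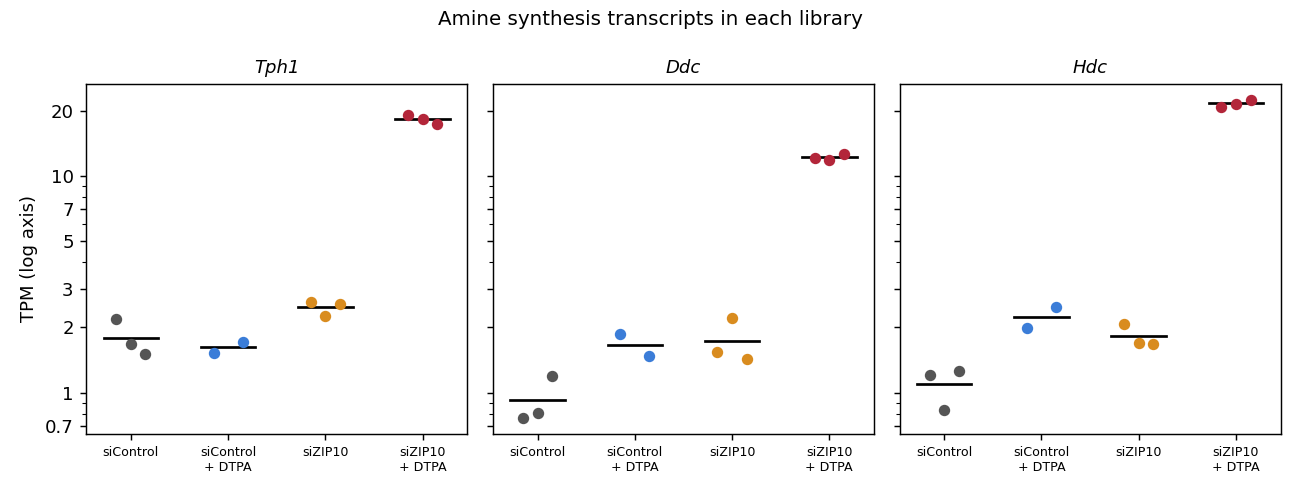
TPM of Tph1, Ddc and Hdc (log axis) in each library used, by group; each point is 1 library and each line the group mean. The 3 libraries with both treatments lie between 17.4 and 19.1 TPM for Tph1, 11.8 and 12.6 for Ddc and 20.7 and 22.5 for Hdc, above every library of the other groups.

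The levels with both treatments were beyond what the single treatments add up to. For Tph1, DTPA alone gave 0.902 times the control mean and siZIP10 alone 1.39 times, and applying both factors to the control gives 2.25 TPM, of which the measured level was 8.12 times. For Ddc the single factors were 1.81 and 1.87, their product gives 3.12 TPM, and the measured level was 3.90 times that. For Hdc the factors were 2.03 and 1.65, the product gives 3.70 TPM, and the measured level was 5.83 times that. Adding the single changes in TPM instead of multiplying them gives 2.31, 2.47 and 2.96 TPM for Tph1, Ddc and Hdc, and the measured levels were 7.89, 4.93 and 7.29 times those sums. The single-treatment comparisons share the control libraries, and these ratios describe the pattern for which the genes were selected.

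**Figure D2:**
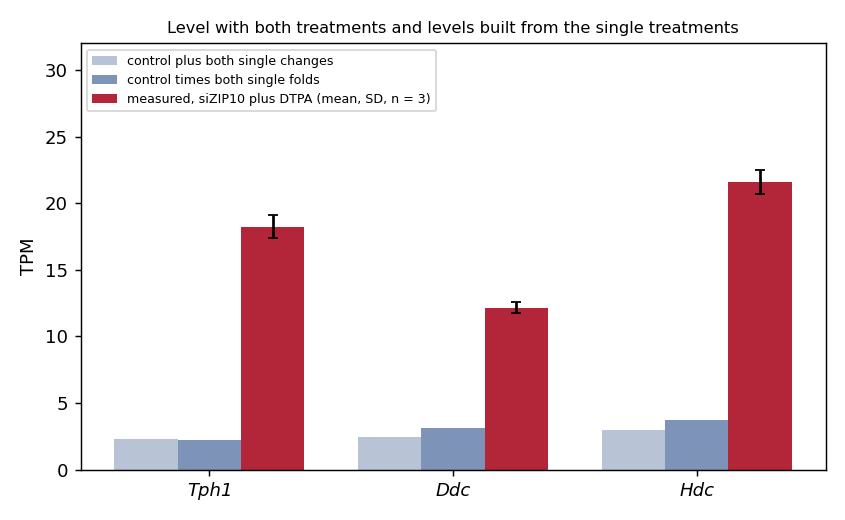
Measured TPM with siZIP10 plus DTPA (dark red, mean with SD, n = 3) beside the level given by adding both single changes to the control mean (pale blue) and by multiplying the control mean by both single folds (darker blue), which are drawn without error bars. The measured bars are 18.3, 12.2 and 21.6 TPM for Tph1, Ddc and Hdc, and the built levels are 2.25 to 3.70 TPM.

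The balance among the 3 transcripts moved less than their amount. Their summed level was 3.32 to 4.17 TPM in siControl, 5.37 to 5.68 with DTPA, 5.69 to 6.26 with siZIP10 and 51.6 to 52.5 with both. Tph1 made up 38.2% to 52.6% of that sum in control libraries and 33.2% to 36.8% with both treatments, Hdc 25.1% to 31.8% and 39.9% to 42.9%, and Ddc 18.4% to 30.1% and 22.9% to 24.0%. Tph1 thus led in control cells and Hdc in doubly treated ones. Hdc already led with DTPA alone (37.2% to 43.8%, against 28.3% to 30.3% for Tph1), while Tph1 led with siZIP10 alone (36.7% to 45.2%, against 27.6% to 33.3% for Hdc). The share of Ddc with both treatments lay within its control range. On the log2(TPM + 1) scale the differences with both treatments were 3.43 for Hdc, 2.79 for Tph1 and 2.78 for Ddc, which rank 7, 22 and 23 from the top among the 11379 genes whose mean reached 1 TPM. With DTPA alone the same genes ranked 253 (0.63), 6815 (−0.09) and 465 (0.47), and with siZIP10 alone 447 (0.43), 744 (0.33) and 310 (0.50). All 3 passed that filter on low values, and Ddc, whose control mean is below 1 TPM, passed it through its treated libraries.

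The labels were checked on Slc39a10, which stood at 2.62 ± 0.271 TPM in siControl (SD, n = 3), 21.1 ± 1.19 with DTPA (n = 2), 0.627 ± 0.182 with siZIP10 (n = 3) and 5.10 ± 0.228 with both (n = 3). The metallothionein transcript Mt2, which zinc induces, was at 1963 to 2108 TPM in siControl and 15.0 to 26.2 TPM in all DTPA libraries. With siZIP10 alone Mt2 did not fall, at 2365 to 2497 TPM, above every control. Depth recovered from the values was 19.6 M to 24.7 M reads. The doubly treated libraries also differed in make-up: mitochondrial rRNA was 1.44% to 1.45% of their TPM against 0.262% to 0.421% elsewhere, while their share from nuclear protein-coding genes was lower, at 77.3% to 79.6% as opposed to 82.6% to 84.1%; its part in the results was not tested. After rescaling to nuclear protein-coding genes the log2 differences with both treatments were 2.87 for Tph1, 2.85 for Ddc and 3.51 for Hdc.

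What moved around these 3 genes was tested with limma on log2(TPM + 1) over all 11379 genes, with two-sided p-values adjusted by the Benjamini-Hochberg method and called under 0.05. With both treatments 66.6% of all genes tested were called (26.7% higher, 39.9% lower), with DTPA alone 28.8% (9.98% higher, 18.8% lower) and with siZIP10 alone 30.6% (13.1% higher, 17.5% lower). The interaction subtracts the DTPA effect in siControl cells from that in siZIP10 cells, and was called for 32.4% (12% positive, 20.4% negative). Of 75 other genes in 8 lists around amine synthesis, 26 passed the filter. With both treatments 13 of these rose, 9 fell and 4 did not pass (median 0.19 against −0.08 for all genes). DTPA alone raised 6 and lowered 8, siZIP10 alone raised 8 and lowered 6, and the interaction was positive for 7 and negative for 5. Both directions thus occurred in every comparison.

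Genes for the tetrahydrobiopterin cofactor of tryptophan hydroxylase went both ways with both treatments, 4 of 6 tested up and 2 down. Spr, sepiapterin reductase, and Pts, which act in cofactor synthesis, rose by 0.31 and 0.24, while Qdpr, which recycles the cofactor, fell from 49.1 ± 4.31 to 36.9 ± 1.76 TPM (−0.40, adjusted p = 0.000319) and Pcbd2 fell by 0.54. Gchfr, a regulator of the first enzyme, rose by 0.50 (adjusted p = 0.0225) from 16.5 to 19.3 TPM in siControl to 21.4 to 35.6 with both, a call lost without siControl replicate 2 (0.44, adjusted p = 0.0713) and with no filter on low values (adjusted p = 0.0582). That first enzyme, GTP cyclohydrolase (Gch1), was below the filter at 0.413 to 0.694 TPM in siControl and 0.0769 to 0.173 with both, 70 and 16 reads in all. Tested with no filter, Gch1 fell by 0.45 (adjusted p = 0.00099). Without that filter 37.7% of 20855 genes were called with both treatments (16.1% higher, 21.7% lower) and 15.9% for the interaction. Pcbd1, another recycling gene, was listed at 0 in every library.

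Among genes for pyridoxal phosphate, the cofactor of both decarboxylases, 2 of 4 rose and 1 fell with both treatments. Pdxk, the kinase that phosphorylates vitamin B6, was at 11.7 to 12.0 TPM in siControl, 11.3 with DTPA, 12.5 to 14.4 with siZIP10 and 22.4 to 25.8 with both (0.94, adjusted p = 1.85e-07; interaction 0.86, adjusted p = 5.6e-05). The doubly treated libraries of Pdxk stood far above the rest, and the siZIP10 libraries lay above the controls without a call (0.16, adjusted p = 0.0735). Plpbp, a pyridoxal phosphate binding protein, rose by 0.30, and Pdxp, the phosphatase, was at −0.09 (adjusted p = 0.707).

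Transporters that bring in tryptophan, histidine and other neutral amino acids also split. Slc7a8 (LAT2) rose with each treatment, from 101.0 to 109.8 TPM in siControl to 142.3 and 146.2 with DTPA, 162.3 to 169.6 with siZIP10 and 324.9 to 336.3 with both (1.62, adjusted p = 4.04e-11; interaction 0.56, adjusted p = 1.84e-05). Its 4 groups did not overlap. Slc43a2 (LAT4) went from 18.7 ± 0.727 to 54.2 ± 2.30 TPM with both (1.48, adjusted p = 1.56e-09) and was already at 43.8 ± 2.62 with DTPA alone. Slc38a5, which carries glutamine and histidine, fell from 361.6 ± 5.37 to 130.4 ± 2.97 TPM (−1.46, adjusted p = 2.23e-11). The abundant pair Slc7a5 and Slc3a2, which form LAT1, differed by 0.14 (adjusted p = 0.0031) and −0.32 (adjusted p = 1.41e-06). The call of Slc7a5 was lost with the repeated library as labelled (adjusted p = 0.218). Slc15a4, a lysosomal histidine carrier, differed by −0.07 (adjusted p = 0.397).

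Storage genes parted. Srgn, which encodes serglycin, rose in all treated groups, from 42.5, 36.6 and 44.2 TPM in siControl to 81.5 and 72.7 with DTPA, 45.5, 48.0 and 53.7 with siZIP10 and 242.2, 241.7 and 252.9 with both (2.55, adjusted p = 4.41e-10; interaction 1.41, adjusted p = 8.27e-06). The groups of Srgn did not overlap, and the doubly treated libraries lay far above all others. Slc18a1, the vesicular monoamine transporter VMAT1, moved the other way: it was at 11.3, 11.7 and 11.2 TPM in siControl, 10.1 and 9.23 with DTPA, 16.6, 14.3 and 15.4 with siZIP10 and 4.15, 3.92 and 4.62 with both (−1.25, adjusted p = 6.78e-08; interaction −1.43, adjusted p = 5.04e-06). Its levels with siZIP10 alone lay above, and with both treatments below, all controls. Slc18a2 (VMAT2), the form that loads mast cell granules, was below the filter, with 2 reads in siControl, 1 with DTPA, 4 with siZIP10 and 20 with both over each whole group. Tested in limma with no filter, Slc18a2 rose by 0.19 with both treatments (adjusted p = 0.0121), without a call for the interaction (0.17, adjusted p = 0.176). The serotonin transporter Slc6a4 held at most 6 reads in a group.

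Of 12 genes for breakdown or conversion of amines, 5 were tested. Maoa, monoamine oxidase A, which oxidises serotonin, rose from 19.3 ± 1.51 to 35.1 ± 1.38 TPM with both (0.83, adjusted p = 3.31e-07; interaction 0.49, adjusted p = 0.00165). Aldh2, an aldehyde dehydrogenase that clears the resulting aldehydes, was at 95.5, 90.4 and 99.2 TPM in siControl, 124.3 and 111.9 with DTPA, 100.5, 89.9 and 97.1 with siZIP10 and 294.2, 265.5 and 296.6 with both (1.58, adjusted p = 2.38e-09; interaction 1.25, adjusted p = 3.3e-06). The siZIP10 libraries of Aldh2 overlapped the controls, and its doubly treated libraries stood far above. Hnmt and Aoc1, which inactivate histamine, were listed at 0 in every library. Aldh9a1 fell by 0.14 (adjusted p = 0.0043), a call lost under median-of-ratios scaling (−0.05) and turned in sign under quantile normalization (0.021), and Aldh7a1 was at 0.05 (adjusted p = 0.666).

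Other enzymes of the same families did not follow. The hydroxylases Tph2 and Th and the decarboxylases Gad1 and Gad2 were at or near 0, with at most 2 reads of Tph2 in a group. Odc1, ornithine decarboxylase, fell from 196.8 ± 1.22 to 104.2 ± 5.05 TPM with both (−0.91, adjusted p = 5.72e-09), and Csad was at 0.33 (adjusted p = 0.0794). Afmid, of the competing kynurenine route, rose by 0.73 (adjusted p = 7.26e-06), while Ido1, the entry enzyme of that route, was listed at 0. Of 17 serotonin and histamine receptor genes 14 were listed at 0 in all libraries and the other 3 held 1 or 2 reads in 1 group. Of 21561 protein-coding genes, 8553 were at 0 in all libraries used.

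**Figure D3:**
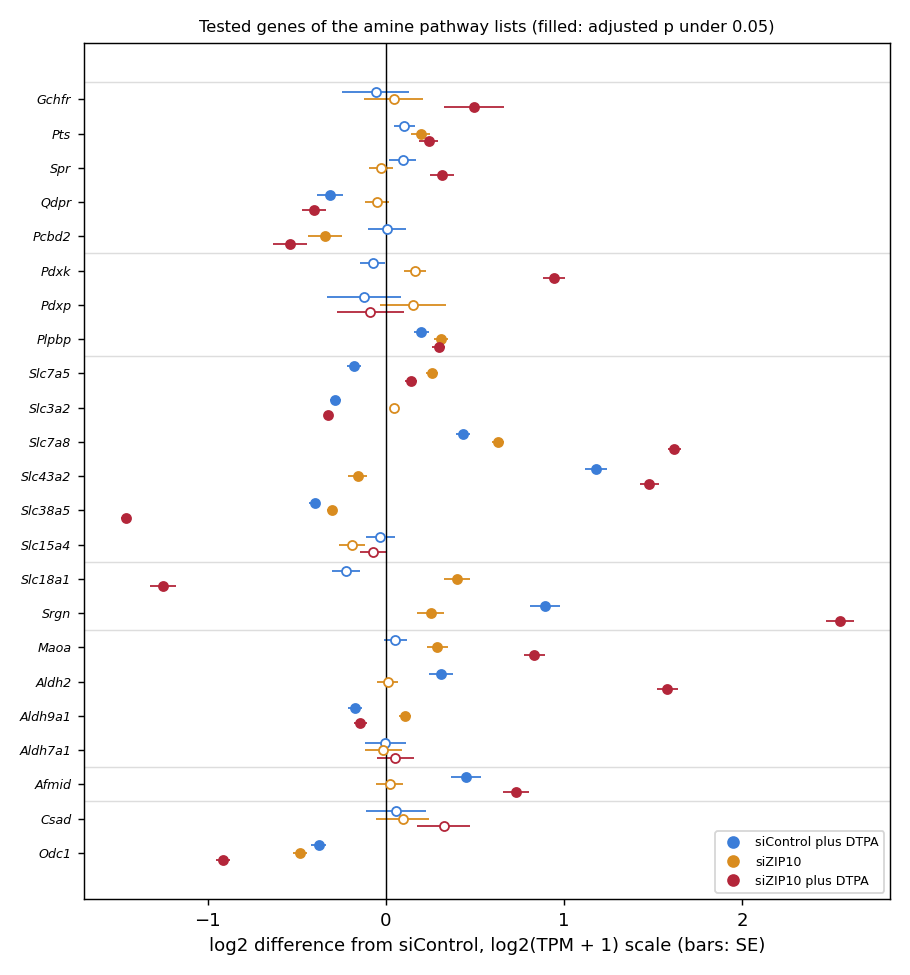
Log2 difference from siControl on the log2(TPM + 1) scale (points, with SE of the limma model) for 23 of the 26 tested genes around amine synthesis, with DTPA alone (blue), siZIP10 alone (orange) and both (red); filled points are called, and grey lines divide the lists. Of those drawn, 12 lie to the right and 7 to the left as calls with both treatments, led by Srgn at 2.55 and Slc38a5 at −1.46.

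Of 22 markers of mast cells and basophils, 15 were above 0 in at least 1 library and 2 passed the filter on low values. The other 7 were listed at 0 in every library, among them the IgE receptor chains Fcer1a and Ms4a2, the chymase Cma1 and the basophil protease Mcpt8. Of 21561 protein-coding genes 8553 were likewise at 0 in all libraries used, so the count of 7 does not set this list apart. The carboxypeptidase Cpa3 held 1 read in all, with both treatments, and Mitf, a mast cell transcription factor, also 1. The summed level of the list was 16.0 to 16.7 TPM in siControl, 24.0 to 24.1 with DTPA, 15.9 to 18.8 with siZIP10 and 69.7 to 71.2 with both, and most of it was Kit. DTPA alone called 1 of the 2 tested markers (Kit), siZIP10 alone 0 (1, Kit, at an unadjusted p under 0.05 in limma, and 1 under quantile normalization), both treatments 2 and the interaction 2. Kit, the receptor for Kit ligand, stood at 15.2, 13.8 and 14.5 TPM in siControl, 20.8 and 20.49 with DTPA, 16.5, 14.6 and 17.8 with siZIP10 and 59.8, 55.6 and 56.5 with both (1.91, adjusted p = 1.17e-09; interaction 1.28, adjusted p = 5.66e-06). Progenitors of several blood lineages express Kit as well.

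The mast cell protease Mcpt2 was the other tested marker and rose from 0.608 to 1.08 TPM in siControl to 5.73 to 7.93 with both (2.07, adjusted p = 2.88e-05; interaction 1.98, adjusted p = 0.00247), 18 and 161 reads in all. It passed the filter only through the doubly treated group, where it is high, so the count of 2 called markers rests in part on that choice; with no filter it was called as well (adjusted p = 0.000158). It belongs to a cluster of similar protease genes, so the division of reads among them is uncertain. With no filter on low values 15 markers could be tested and 8 were called with both treatments, all higher. Of all 20855 genes tested that way 37.7% were called, 16.1% higher. Apart from Kit, the markers held 0 to 23 reads over the siControl group, which left little room for a fall. Their shared direction is therefore not read as a result. The 8 include Tpsb2, with 3 reads with both treatments and 0 in siControl. Cpa3, Tpsg1, Siglecf, Rgs13 and Prss34 were above 0 only in doubly treated libraries, so they could be tested only through that group, and none was called. Among the markers added without the filter Cd200r3, a basophil and mast cell receptor, was at 0.0220 to 0.0961 TPM in siControl and 1.67 to 1.99 with both (7 and 255 reads). The IL-33 receptor Il1rl1 went from 13 to 106 reads. The tryptase Tpsab1 went from 23 to 77 reads. The part of a change in cell make-up in the rise of the 3 synthesis genes was not tested.

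Of 11 tested transcription factors of the mast cell and early progenitor programmes 6 rose and 3 fell with both treatments. Of all genes tested 66.6% were called in that comparison, 26.7% higher and 39.9% lower. Gata2, which drives early progenitors and mast cells, was at 37.6, 39.9 and 41.6 TPM in siControl, 40.1 and 38.7 with DTPA, 32.9, 33.0 and 33.3 with siZIP10 and 80.7, 76.7 and 74.1 with both (0.94, adjusted p = 1.08e-08; interaction 1.21, adjusted p = 5.01e-07). DTPA alone left Gata2 within the control range and siZIP10 alone lowered it (−0.26, adjusted p = 0.00135). Spi1, which encodes the myeloid factor PU.1, was at 12.5 to 14.1 TPM in siControl, 19.1 and 19.95 with DTPA, 9.88 to 11.0 with siZIP10 and 35.8 to 38.0 with both (1.42, adjusted p = 3.75e-09; interaction 1.16, adjusted p = 3.98e-06). Its groups did not overlap, and siZIP10 lay below and DTPA above control.

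Stat5a rose from 21.8 ± 0.173 to 40.4 ± 2.03 TPM (0.86, adjusted p = 1.22e-07) and Fli1 by 0.75, whereas Stat5b was at −0.07 (adjusted p = 0.0691; 0.10 and called under quantile normalization). Meis1 and Lmo2 rose by 0.73 and 0.14. Gata1, the erythroid factor, whose reads may come from the introduced form, fell from 2067 ± 53.7 to 1020 ± 38.9 TPM (−1.02, adjusted p = 2.19e-09). Tal1 and Runx1 fell by 0.53 and 0.33. Lyl1 was at 0.13 with both treatments (adjusted p = 0.606), with an interaction of 1.07 (adjusted p = 0.0262). That interaction lost its call without any 1 of 5 libraries, for example without siControl plus DTPA replicate 1 (0.96, adjusted p = 0.0961). Means of Lyl1 were 1.35 TPM in siControl, 0.589 with DTPA, 0.777 with siZIP10 and 1.59 with both. Without the doubly treated libraries, where it is highest, Lyl1 would not have passed the filter on low values.

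Red cell and other lineage markers moved in the same libraries, in which 26.7% of all genes tested rose and 39.9% fell. Of 9 tested erythroid markers 6 fell and 3 rose with both treatments, though under quantile normalization Alas2 (0.22) was at −0.026 and Hbb-bs (0.32) lost its call (0.19, adjusted p = 0.138), as it also did with no filter on low values (adjusted p = 0.0884). Slc4a1, the band 3 anion exchanger, was at 441.6 to 451.7 TPM in siControl, 226.2 and 241.4 with DTPA, 295.5 to 317.5 with siZIP10 and 21.7 to 23.2 with both (−4.25, adjusted p = 1.2e-13). Hba-a1, which has a near-identical copy, fell by 1.49 and Epor, the erythropoietin receptor, by 1.08, while Gfi1b rose by 0.66. Erythroid identity by these markers held in every group, since Hba-a1 and Hbb-bs had means of at least 4150 TPM in each. Of 4 tested megakaryocyte markers 3 rose (Itgb3 by 1.75, Gp1ba by 1.68 and Itga2b by 1.34), and the summed level of that list was 16.2 to 17.5 TPM in siControl, 25.7 to 26.7 with DTPA, 17.2 to 18.7 with siZIP10 and 57.3 to 58.5 with both. The 12 myeloid and lymphoid markers summed to 3.11 to 4.40 TPM in siControl and 8.24 to 9.96 with both, with Cd68 (0.96) and Cd79a (1.17) higher, the second of which passed the filter only through the doubly treated group, and Mpo, Elane and Cd3e at or near 0. The 8 neuroendocrine markers summed to at most 0.920 TPM in any library, with Chga at 0.

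**Figure D4:**
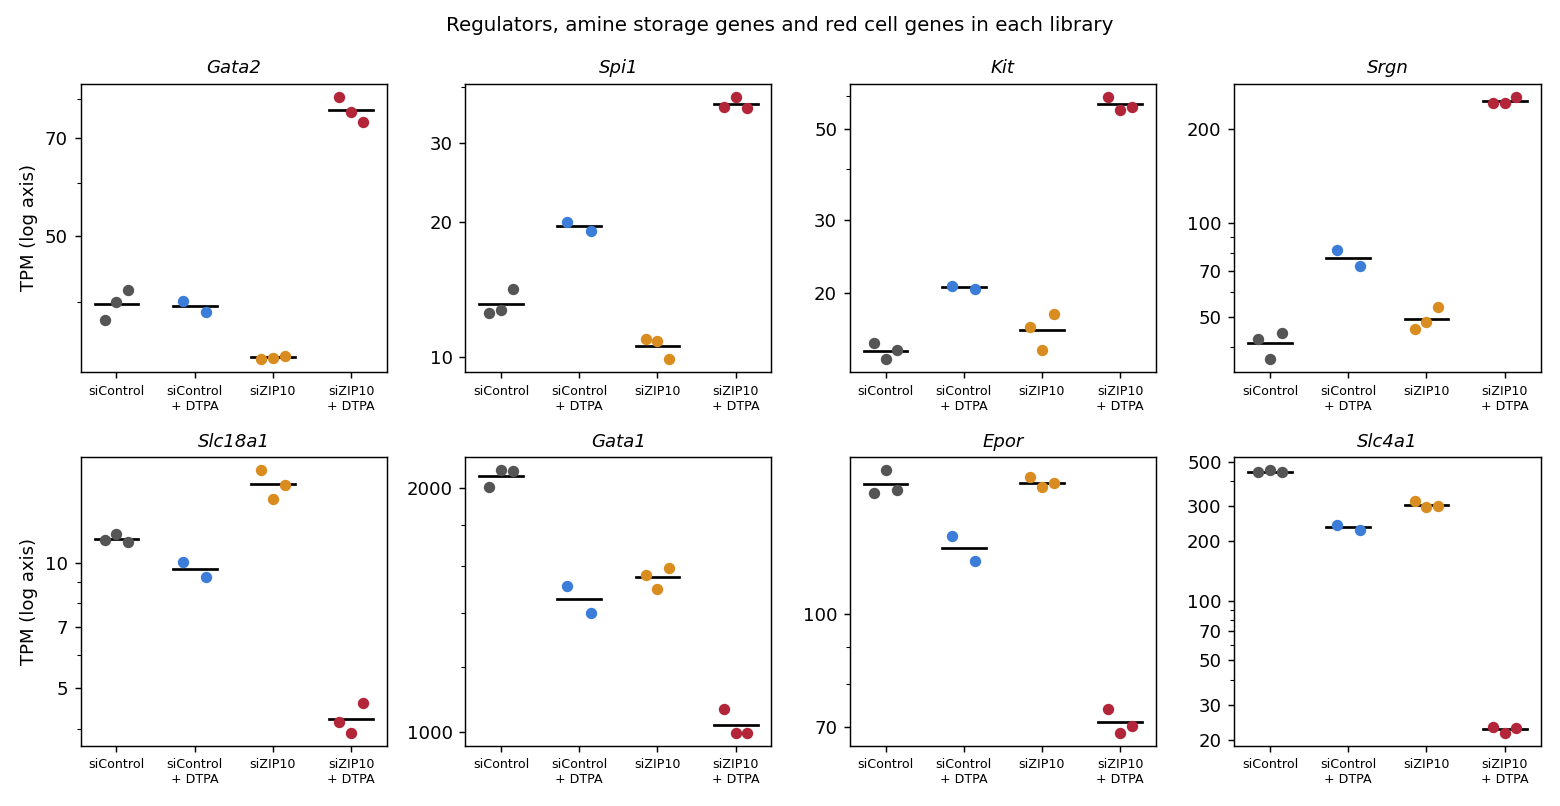
TPM (log axes, which differ between panels) of Gata2, Spi1, Kit, Srgn, Slc18a1, Gata1, Epor and Slc4a1 in each library used, by group; points are libraries and lines group means. Gata2, Spi1, Kit and Srgn are highest, and Slc18a1, Gata1, Epor and Slc4a1 lowest, in the 3 libraries with both treatments.

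The genes next to the 3 loci did not share one direction. Sergef and Saal1, on either side of Tph1, fell by 0.38 (adjusted p = 0.00246) and 0.57 (adjusted p = 1.05e-05) with both treatments, and Gabpb1, beside Hdc, fell by 0.57 (adjusted p = 2.09e-06). Slc27a2, on the other side of Hdc, was listed at 0. Fignl1, 5138 bases from Ddc, fell from 22.7 ± 1.17 to 4.53 ± 0.178 TPM (−2.10, adjusted p = 4.08e-10). Grb10, 32363 bases upstream of Ddc and coding for a growth factor receptor adaptor, was the neighbour that rose. It was at 0.0434 to 0.0532 TPM in siControl (9 reads in 3 libraries), 0.0578 and 0.105 with DTPA (11 reads in 2), 0.0486 to 0.206 with siZIP10 (21 reads in 3) and 0.939 to 1.06 with both (204 reads in 3). Its level was below the filter, and tested with no filter it rose by 0.93 (adjusted p = 9.6e-07; interaction 0.79, adjusted p = 0.000217). At mouse Grb10 and Ddc, transcripts are known to be imprinted in some tissues, which gene-level values do not show.

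An antisense gene within Ddc, 1700042O10Rik (chromosome 11, 11868123 to 11885321, plus strand), moved with it, and was singled out because it overlaps Ddc. It held 1 to 2 reads in a siControl library, 2 to 4 with DTPA, 1 to 4 with siZIP10 and 13 to 24 with both. With no filter its log2 difference with both treatments was 1.40 (adjusted p = 0.000225). No exon base of it is shared with an exon of Ddc. Whether counting used strand is not stated in the sources read, so intronic reads of Ddc and reads of this gene cannot be told apart.

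The genes whose pattern over the 11 libraries was most like that of each synthesis gene differed among the 3. By Pearson's r of log2(TPM + 1), a description of points that share depth and treatment group, the 5 nearest to Tph1 were Ptgr1, Actn3, Ccdc186, Mboat7 and Rnf135 (0.992 to 0.997). Ptgr1, a prostaglandin reductase, had means of 164.3 TPM in siControl, 162.6 with DTPA, 181.9 with siZIP10 and 312.3 with both. Nearest to Ddc were A930015D03Rik, Ly75, Numbl, Dyrk2 and Abca1 (0.992 to 0.994), of which the endocytic receptor gene Ly75 had means of 17.3, 26.6, 24.9 and 96.8 TPM in the same order. Nearest to Hdc were Trim25, Pnkd, F2rl2, Padi3 and Gng2 (0.995 to 0.996). F2rl2, a thrombin receptor family member, was at 0.276 TPM in siControl, 0.666 with DTPA, 0.437 with siZIP10 and 12.2 with both. It passed the filter on low values, and so could enter this list, only through the doubly treated group, where it is high. Among themselves, Ddc and Hdc had r = 0.989, Tph1 and Hdc 0.979, and Tph1 and Ddc 0.971.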

How the data were processed

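Gene expression was taken from the TPM values the authors deposited for each library, which sum to 1000000. The submitters' processing notes name the mm10 build, HISAT2 2.1.0, Trimmomatic 0.33, featureCounts, edgeR and FastQC. Order, settings, annotation and use of strand: not given in the sources used here. Gene models came from GENCODE mouse release 21 and promoter windows from RefSeq (GRCm38.p6). The values given for siControl plus DTPA replicate 3 were those of siZIP10 replicate 1 for all 55487 genes, so that library was left out and siControl plus DTPA has n = 2.

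Each library's TPM times exon length came in whole steps, which gave reads: 98.8% to 99.0% of values up to 20 reads were whole within 0.1 read. Genes whose mean reached 1 TPM were tested as log2(TPM + 1), which understates changes of low genes, with limma 3.58.1 in R 4.3.3 (trend, 4 group means, 7 residual degrees of freedom), adjusted over all genes. SD and SE measure the spread between cultures of 1 line. The scripts were tested on simulated data. Replicate numbers did not pair the libraries (correlation of same-numbered deviations −0.06 to 0.06).

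The members and gene lists were chosen with earlier results of these data known. Named were the members, label checks, called, abundant or marker members of the lists, nearest protein-coding neighbours, and for each member the 5 genes most like it. Of 10 erythroid symbols, 9 were found. Some list genes are counted but not reported here by name. Other software was matplotlib 3.10.9, pandas 2.3.3, numpy 2.4.6 and Python 3.11.15. Alternatives were another pseudocount, filters, scalings, voom on recovered reads, a replicate block, fewer groups in the fit, no trend, the repeated library as labelled, and each library left out.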

Additional observations from a re-analysis of the deposited data

Results flagged for a closer look

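By the interaction term of limma at an adjusted p under 0.05, the effect of DTPA differed between knockdown and control cells for 16 named genes. They belong to the lists around amine synthesis, the mast cell markers and the transcription factors. Called were 46.2% of 26 tested amine pathway genes, not all of them named, 2 of 2 mast cell and basophil markers and 45.5% of 11 transcription factors. Of all genes tested 32.4% passed the same threshold. Mcpt2 and Lyl1 passed the filter on low values only with the doubly treated libraries counted, where they are highest. The DTPA effect was more positive with siZIP10 for 12: Spi1 (1.16), Stat5a (0.74), Gata2 (1.21), Kit (1.28), Mcpt2 (1.98), Srgn (1.41), Pdxk (0.85), Slc7a8 (0.56), Slc43a2 (0.46), Maoa (0.49), Aldh2 (1.25) and Lyl1 (1.07), as log2 interactions. It was more negative for 4: Tal1 (−0.44), Slc38a5 (−0.76), Plpbp (−0.21) and Slc18a1 (−1.43). The interactions of Lyl1 and Plpbp each lost their call when some single libraries were left out, and that of Slc43a2 (0.89, adjusted p = 0.093) with the repeated library as labelled.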

How the results depend on the processing

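The differences of Tph1, Ddc and Hdc with both treatments (2.79, 2.78 and 3.43) kept their sign under every alternative for which they were recorded. These differences were not recorded for the other filters on low values, fewer groups in the fit or no trend. They depend on the pseudocount, being 3.29, 3.61 and 4.19 with 0.1 and 3.41, 3.82 and 4.37 with voom on recovered reads, both of which shrink low values less by construction. Leaving out each library gave 2.72 to 2.89, 2.73 to 2.88 and 3.33 to 3.49. The small difference of Tph1 with DTPA alone (−0.09) ranged from −0.159 to 0.013 when 1 library was left out, the latter without siControl replicate 1, and was 0.071 with the repeated library as labelled.

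Calls of mast cell and basophil markers were 2 with both treatments and 2 for the interaction, 8 and 4 with no filter on low values, and 1 and 1 with at least 5 TPM, as the number tested changed. Of all genes tested, 66.6% and 32.4% were called in those 2 comparisons with the filter, and 37.7% and 15.9% without it. With siZIP10 alone limma called 0 (1, Kit, at an unadjusted p under 0.05) and 1 under median-of-ratios scaling, 1 under quantile normalization and 1 with voom; leaving out each library gave 0 to 1, the latter without siZIP10 replicate 2. With the repeated library as labelled, 9 in place of 14 amine genes were called with DTPA alone and 8 in place of 14 with siZIP10 alone; the cause was not tested. Under quantile normalization with both treatments Aldh9a1 was at 0.021, Stat5b at 0.10 and Alas2 at −0.026. The interaction of Slc39a10, −0.70 in the main fit (limma adjusted p = 0.00604), lost its call with a pseudocount of 0.1 (−0.10, adjusted p = 0.81). It turned in sign with voom (0.059) and with the repeated library (0.58), neither of them called. That of Mt1, 0.41 in the main fit (adjusted p = 0.00257), was −0.73 with the repeated library, without a call.

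With the replicate block, 22 amine genes were called with both treatments and 12 for the interaction, as without it, and 7582 against 7583 of all genes; of the genes named it ended the call of the Fignl1 interaction (−0.29, adjusted p = 0.0601, against −0.30) and no other. The share of higher calls with both treatments, 40.1%, was 50.2% under quantile normalization; with DTPA alone 34.7% became 47.7% and 51.1% under median-of-ratios and quantile scaling, with siZIP10 alone 42.9% became 54.3% under quantile scaling, and for the interaction 37.1% became 54.3% after nuclear rescaling and 47.3% with voom. Depth limits the genes near 0, for which a group held a few reads.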

Other observations

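Pcbd1, the cofactor recycling gene listed at 0, lies in a run of 8 protein-coding genes on chromosome 10 that were all listed at 0 in the 11 libraries, from Unc5b (start 60762593) to Nodal (end 61425338). The run includes Sgpl1, sphingosine phosphate lyase, a gene that most tissues express. The genes on either side were above 0, Slc29a3 with a mean of 1.63 TPM and Eif4ebp2 with 179.1 TPM. Runs of at least 8 protein-coding genes at 0 occurred 175 times in the genome, the longest with 179 genes.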
